A study of Homo sapiens with 6 samples.

Results

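The genes of glutathione synthesis and the glutathione peroxidases were followed in RNA-seq libraries of MIA PaCa-2, an established human pancreatic cancer cell line. The 10 genes, GCLC, GCLM, GSS, GSR, GPX1, GPX2, GPX3, GPX4, GPX8 and CHAC2, were taken by their symbols from the 35993 genes of the deposited table, and 9 of them had enough reads to be tested. They act in synthesis of glutathione, in its recycling and breakdown, and in its use by peroxidases. The control group comprised 3 libraries of cells that received no rhCYGB, and the treated group 3 libraries of cells exposed to 4 µM of rhCYGB for 48 h. rhCYGB is recombinant human cytoglobin, a heme globin that the study made in bacteria. Cells of both groups were kept in medium with 1% FBS, and all came from the same cell line, with no label saying whether the libraries of a group were grown as separate cultures. The p-values therefore measure only the spread between these libraries, which may be technical.

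Glutathione is a tripeptide of glutamate, cysteine and glycine. Glutamate-cysteine ligase, made of the catalytic subunit GCLC and the modifier subunit GCLM, joins the first pair of amino acids in the step that limits the rate, and glutathione synthetase (GSS) adds glycine. Glutathione peroxidases such as GPX1 and GPX4 spend glutathione to reduce hydrogen peroxide or lipid peroxides. Glutathione reductase (GSR) returns the oxidised form to the reduced form at the expense of NADPH, and CHAC2 degrades glutathione inside the cell. Several genes of the pathway are known targets of NRF2, encoded by NFE2L2, which binds antioxidant response elements, and of ATF4, which binds C/EBP-ATF elements, and pancreatic cancer cells are known to depend on cystine uptake for glutathione.

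The start regions of 6 genes are shown because they set side by side partner genes that moved in opposite directions, GCLC against GCLM and CHAC1 against CHAC2, and the members in which a searched element was found, GCLM, GPX2 and GPX8. CHAC1, which degrades glutathione as CHAC2 does, is not among the 10 genes and is included for comparison. Each sequence is the RefSeq window of GRCh38.p14 from 250 bases before to 50 bases after the start of the gene, written 5′ to 3′ on the strand of the gene, and capitals mark a match to TGACNNNGC, the core of the antioxidant response element, or to TGATGNAA, the C/EBP-ATF element, on either strand. The windows lie at chr6:53545052-53545351 (minus strand) for GCLC, chr1:93909381-93909680 (minus) for GCLM, chr14:64942696-64942995 (minus) for GPX2, chr5:55159921-55160220 (plus) for GPX8, chr15:40953221-40953520 (plus) for CHAC1 and chr2:53767554-53767853 (plus) for CHAC2.
GCLC: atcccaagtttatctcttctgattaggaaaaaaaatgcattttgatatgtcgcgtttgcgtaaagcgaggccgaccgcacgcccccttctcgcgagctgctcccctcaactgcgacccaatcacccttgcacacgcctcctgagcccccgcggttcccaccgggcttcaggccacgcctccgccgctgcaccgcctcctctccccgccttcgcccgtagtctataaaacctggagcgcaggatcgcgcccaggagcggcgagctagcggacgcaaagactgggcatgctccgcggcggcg
GCLM: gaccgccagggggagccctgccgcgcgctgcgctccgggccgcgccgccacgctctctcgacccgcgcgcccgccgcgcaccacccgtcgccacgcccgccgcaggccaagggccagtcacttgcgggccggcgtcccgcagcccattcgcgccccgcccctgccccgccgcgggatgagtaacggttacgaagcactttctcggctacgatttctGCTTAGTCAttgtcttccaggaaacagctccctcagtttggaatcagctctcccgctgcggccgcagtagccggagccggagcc
GPX2: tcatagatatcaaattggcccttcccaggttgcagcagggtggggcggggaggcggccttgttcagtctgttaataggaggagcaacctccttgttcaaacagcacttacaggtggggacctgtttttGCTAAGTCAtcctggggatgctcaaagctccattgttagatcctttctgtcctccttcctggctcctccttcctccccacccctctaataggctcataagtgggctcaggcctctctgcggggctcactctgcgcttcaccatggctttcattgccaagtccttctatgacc
GPX8: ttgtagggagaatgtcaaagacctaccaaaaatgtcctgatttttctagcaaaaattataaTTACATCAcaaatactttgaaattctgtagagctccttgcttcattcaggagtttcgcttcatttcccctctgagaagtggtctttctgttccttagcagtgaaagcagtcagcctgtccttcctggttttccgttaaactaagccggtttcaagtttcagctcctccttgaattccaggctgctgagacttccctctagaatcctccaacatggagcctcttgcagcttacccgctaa
CHAC1: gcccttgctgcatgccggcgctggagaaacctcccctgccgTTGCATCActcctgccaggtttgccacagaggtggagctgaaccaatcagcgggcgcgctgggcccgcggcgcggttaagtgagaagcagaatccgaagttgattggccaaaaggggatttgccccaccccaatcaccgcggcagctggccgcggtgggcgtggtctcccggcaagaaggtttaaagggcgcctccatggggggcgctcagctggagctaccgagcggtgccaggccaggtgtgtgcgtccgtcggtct
CHAC2: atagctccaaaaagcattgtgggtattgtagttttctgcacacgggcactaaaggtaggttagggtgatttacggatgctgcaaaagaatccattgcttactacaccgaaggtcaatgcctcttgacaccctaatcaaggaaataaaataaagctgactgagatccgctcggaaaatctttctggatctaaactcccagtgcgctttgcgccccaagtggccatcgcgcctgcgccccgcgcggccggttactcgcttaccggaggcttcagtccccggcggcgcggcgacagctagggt
TGACNNNGC was found in 2 of the 8 members with a window, GCLM and GPX2, and in 16.1% of the 27305 genes in the RefSeq table. TGATGNAA was found in 1 of the 8, GPX8, and in CHAC1, beside 4.46% of all genes in the table. The match in GCLM began 34 bases before the start (position -34), that in GPX2 at position -122, that in GPX8 at position -189 and that in CHAC1 at position -209. The windows of GCLC and CHAC2 held neither run of letters, and in the GCLC window 62.7% of the bases were G or C, beside 71.7% in that of GCLM. A match describes the letters in this window and is not a measured binding site.

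The libraries held 34838399 to 42271299 counts on genes, and 14728 genes passed the filter on low counts. Values are given as read counts or as CPM, counts relative to a library size corrected with the TMM factors of edgeR, where a floor of 3 counts corresponds to 0.0669 to 0.0902 CPM. The threshold for a call was a Benjamini-Hochberg adjusted p under 0.05, computed over all genes tested with edgeR's quasi-likelihood test. The libraries of a group were close to each other, with a coefficient of variation of 5.48% from the common dispersion, and 77.6% of all genes tested were called. Of the labelled cell type's markers, KRT8, KRT18, KRT19, VIM and ZEB1 were expressed in all libraries, and KRT7 had only 21 to 38 counts. EPCAM and CDH2 had 0 counts, and CDH1 had 2 counts in the first untreated library only. Acinar and islet markers had 0 counts, as did PTPRC, CD3E, PECAM1, DCN and LUM. The summed stellate cell or fibroblast list, led by COL1A2, was 148 to 159 CPM in untreated and 11.5 to 13.6 CPM in rhCYGB libraries, and the summed endothelial list 109 to 122 and 10.5 to 13.6 CPM, led by CDH5. The leukocyte list, which CD68 carried, was 34.3 to 38 CPM and 70.4 to 72.4 CPM. The mesenchymal list, nearly all of it VIM, was 7960 to 8130 and 11600 to 12100 CPM, and the epithelial list 3840 to 4070 and 2960 to 3170 CPM. These lists moved with the treatment beside every result given here, and their part in the results was not tested. CYGB had 0 counts in all 6 libraries, which says nothing of the labels because the globin was given as protein.

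Of the 9 genes tested, 4 were higher after rhCYGB (GCLC, GPX1, GPX4 and GPX8), 4 were lower (GCLM, GSS, GSR and CHAC2) and GPX3 was not called. These are 44.4% of the 9 in each direction, beside 39.0% higher and 38.6% lower among all genes tested. With a fold change of 2 or more required as well, 1 member was called, GCLC, beside 12.4% of all genes higher and 14.7% lower, or 27.1% in either direction. The CPM values of the groups did not overlap for 7 of the 9, and for 79.5% of all genes tested. The median log2 fold change of the 9 was -0.13, beside -0.0046 over all genes tested. When libraries were scaled to total counts alone, the median of all genes moved by -0.165 on the log2 scale. The log2 fold changes moved with it, to -0.37 for GSS, -0.35 for GSR, -0.47 for CHAC2, -0.30 for GCLM and 0.22 for GPX1. GPX8 then stood at -0.0018 and was no longer called (adjusted p = 0.978, edgeR's quasi-likelihood test). Because these are bulk samples, fewer cells of a type and less RNA per cell cannot be told apart in any of these values.

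**Figure D1:**
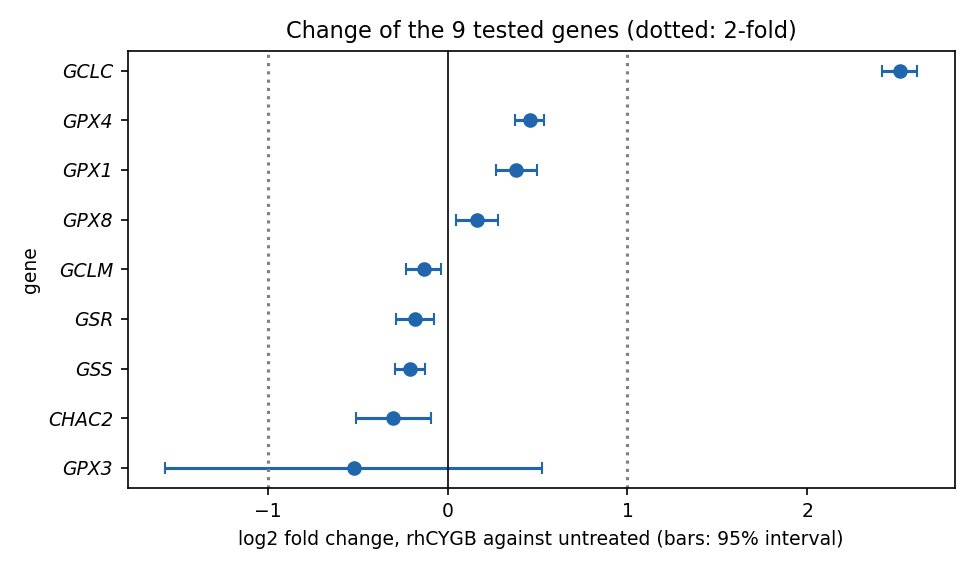
Log2 fold change of the 9 tested genes after rhCYGB (x axis; points, with bars for the 95% interval from edgeR's quasi-likelihood fit; n = 3 libraries per group). GCLC, at 2.51, is the only point beyond the dotted 2-fold lines, and the interval of GPX3 spans 0.

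The synthesis genes were led by GCLC, the catalytic subunit of glutamate-cysteine ligase (gene number 2729, chromosome 6 from 53362139 to 53409899 in the deposited table, whose build is not named). GCLC had 1052, 1285 and 1235 counts in the untreated libraries and 6167, 5692 and 5928 counts in the rhCYGB libraries. In CPM the untreated libraries stood at 28.2, 28.7 and 30.3 and the rhCYGB libraries at 166, 171 and 161. Every rhCYGB library was far above every untreated library. GCLC rose 5.71-fold, with group means of 29.1 ± 1.08 and 166 ± 5.14 CPM (± SD, n = 3 in each group). Its log2 fold change was 2.51, with a standard error (SE) of 0.046 and a 95% interval of 2.42 to 2.61 (adjusted p = 9.86e-16, edgeR's quasi-likelihood test). Only 1.72% of the genes tested had a larger log2 fold change. Its call was kept under all 16 alternatives, with log2 fold changes from 2.20 to 2.55.

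GCLM, the modifier subunit that raises the activity of GCLC (gene number 2730, chromosome 1 from 94350755 to 94375154), did not follow its partner. It had 10757, 13322 and 11457 counts in untreated and 9696, 8230 and 10388 counts in rhCYGB libraries. The CPM values were 289, 297 and 281 in untreated and 261, 247 and 282 in rhCYGB libraries, so the third rhCYGB library lay within the untreated range and the groups overlapped. GCLM fell slightly between means of 289 ± 8.17 and 263 ± 17.3 CPM. The log2 fold change of -0.13 had a standard error of 0.046 and a 95% interval of -0.23 to -0.036 (adjusted p = 0.0148, edgeR's quasi-likelihood test). The call was lost without untreated library 2 (log2 fold change -0.11, adjusted p = 0.0626, edgeR) and without rhCYGB library 2 (-0.093, adjusted p = 0.0736, edgeR). Total counts without scaling factors gave -0.30.

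GSS, which completes the tripeptide (gene number 2937, chromosome 20 from 33516235 to 33543830), had 3883, 4613 and 4440 counts in untreated and 3416, 3037 and 3326 counts in rhCYGB libraries. In CPM these were 104, 103 and 109 against 91.9, 91.3 and 90.2, with all rhCYGB libraries below all untreated libraries. GSS fell, with group means of 105 ± 3.12 and 91.2 ± 0.873 CPM and a log2 fold change of -0.21 ± 0.040 (± SE, adjusted p = 0.000196, edgeR's quasi-likelihood test). The 3 synthesis genes thus moved by different amounts, with 1 rise over 5-fold and 2 falls of under 1.2-fold.

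Ratios of read counts within a library do not depend on the scaling of libraries, and they show the same contrast. GCLC counts per GCLM count were 0.0978, 0.0965 and 0.108 in untreated libraries and 0.636, 0.692 and 0.571 in rhCYGB libraries, a 6.27-fold higher ratio (log2 difference 2.65). The groups did not overlap. GCLC per GSS was 0.271, 0.279 and 0.278 in untreated and 1.81, 1.87 and 1.78 in rhCYGB libraries, a 6.60-fold higher ratio (log2 difference 2.72). For each of these ratios the two-sided exact permutation test over the libraries gave p = 0.1, the smallest value that 3 against 3 libraries allow, and an adjusted p of 0.133 over the 4 ratios compared. The design thus cannot reach 0.05 with this test.

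**Figure D2:**
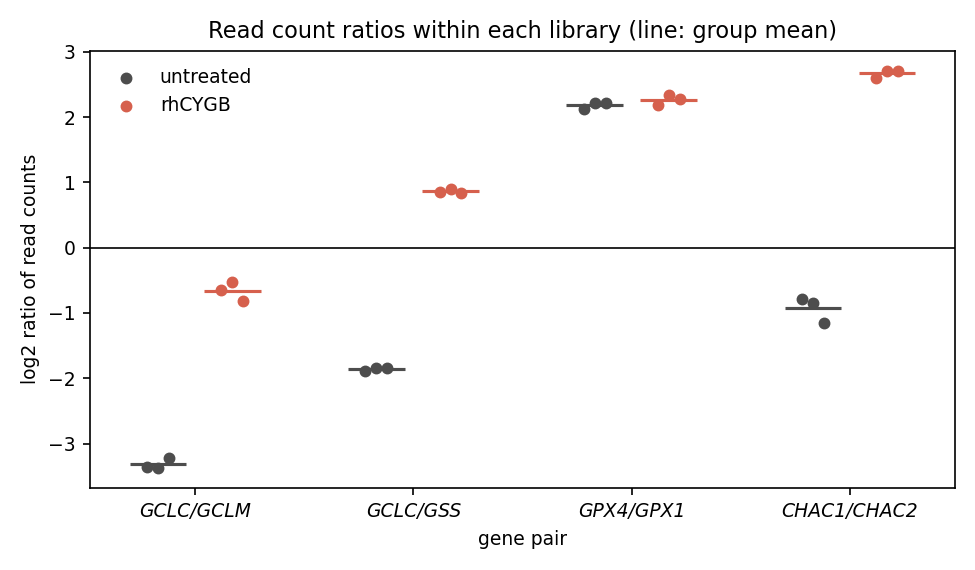
Log2 ratio of read counts (y axis) within each library for 4 gene pairs (x axis), untreated in grey and rhCYGB in red; points are libraries and lines group means. GCLC/GCLM, GCLC/GSS and CHAC1/CHAC2 are higher in all 3 rhCYGB libraries, and the points of GPX4/GPX1 overlap.

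Per length, as FPKM (fragments scaled to transcript length and depth, deposited without the scaling used above), GCLM stood at 55.1 ± 1.30 and GCLC at 7.16 ± 0.324 in untreated cells. After rhCYGB the FPKM levels were 44.8 ± 3.89 for GCLM and 36.5 ± 0.396 for GCLC. GCLM FPKM per GCLC FPKM was 7.92, 8.03 and 7.18 in the untreated libraries and 1.22, 1.12 and 1.35 in the rhCYGB libraries. Of the summed FPKM of both subunits, GCLC accounted for 11.5% ± 0.608 in untreated and 44.9% ± 2.35 in rhCYGB-treated cells. The modifier transcript remained the more abundant in every library, by a margin that had narrowed after rhCYGB.

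GSR, which returns oxidised glutathione to its reduced form (gene number 2936, chromosome 8 from 30535578 to 30585516), had 1772, 2218 and 2056 counts in untreated and 1668, 1453 and 1530 counts in rhCYGB libraries. Scaled to CPM, the values were 47.6, 49.5 and 50.4 against 44.9, 43.7 and 41.5, without overlap. GSR fell, with group means of 49.2 ± 1.45 and 43.4 ± 1.72 CPM and a log2 fold change of -0.18 ± 0.050 (± SE, adjusted p = 0.00387, edgeR's quasi-likelihood test).

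CHAC2, a cytosolic enzyme that cleaves glutathione to 5-oxoproline and cysteinylglycine (gene number 494143, chromosome 2 from 53994920 to 54002333), had 464, 565 and 437 counts in untreated and 389, 308 and 342 counts in rhCYGB libraries. The corresponding CPM values were 12.5, 12.6 and 10.7 against 10.5, 9.26 and 9.28, so the groups stood apart by a narrow margin between the third untreated and the first rhCYGB library. CHAC2 fell, with group means of 11.9 ± 1.05 and 9.67 ± 0.695 CPM and a log2 fold change of -0.30 ± 0.097 (± SE, adjusted p = 0.0106, edgeR's quasi-likelihood test). In the deposited table CHAC2 overlaps ASB3, which had 595 to 801 counts, and whether strand was used in counting is not given in the sources used here, so reads of these genes may not have been separated.

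Its relative CHAC1, which shares the activity of CHAC2 and is a known ATF4 target, moved in the other direction. CHAC1 had 270, 313 and 196 counts in untreated and 2365, 2019 and 2235 counts in rhCYGB libraries. It rose, with group means of 6.35 ± 1.34 and 61.7 ± 1.74 CPM and a log2 fold change of 3.28 ± 0.098 (± SE, adjusted p = 1.76e-13, edgeR's quasi-likelihood test). CHAC1 counts per CHAC2 count were 0.582, 0.554 and 0.449 in untreated and 6.08, 6.56 and 6.54 in rhCYGB libraries, a 12.2-fold higher ratio (two-sided exact permutation p = 0.1, adjusted p = 0.133). Per length, CHAC1 FPKM per CHAC2 FPKM was 0.513, 0.479 and 0.387 in untreated and 5.28, 5.67 and 5.72 in rhCYGB libraries, so that CHAC2 was the more abundant transcript in all untreated libraries and CHAC1 in all rhCYGB libraries.

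GPX4, the selenoenzyme that reduces phospholipid peroxides (gene number 2879, chromosome 19 from 1103993 to 1106778), was the most abundant of the GPX genes per length. It had 8899, 10694 and 9632 counts in untreated and 12253, 11196 and 11540 counts in rhCYGB libraries. The CPM values were 239, 239 and 236 against 330, 337 and 313, without overlap. GPX4 rose 1.37-fold, with group means of 238 ± 1.49 and 327 ± 12.1 CPM and a log2 fold change of 0.46 ± 0.037 (± SE, adjusted p = 1.94e-08, edgeR's quasi-likelihood test). Total counts gave a log2 fold change of 0.29.

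GPX1, the cytosolic and mitochondrial selenoenzyme that reduces hydrogen peroxide (gene number 2876, chromosome 3 from 49394604 to 49396033), had 2030, 2293 and 2071 counts in untreated and 2697, 2216 and 2380 counts in rhCYGB libraries. In CPM these were 54.5, 51.2 and 50.8 against 72.6, 66.6 and 64.6, again without overlap. GPX1 rose, with group means of 52.1 ± 2.04 and 67.9 ± 4.18 CPM and a log2 fold change of 0.38 ± 0.053 (± SE, adjusted p = 7.96e-06, edgeR's quasi-likelihood test). The row of its pseudogene GPX1P1 had 287, 313 and 239 counts in untreated and 107, 87 and 128 counts in rhCYGB libraries, a log2 fold change of -1.19. Reads could be split between these similar copies, which makes the size of the GPX1 change uncertain. With the counts of both rows summed, an alternative chosen after the values were seen, the log2 fold change was 0.27 ± 0.052 (± SE, adjusted p = 0.000266, edgeR's quasi-likelihood test).

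GPX4 counts per GPX1 count were 4.38, 4.66 and 4.65 in untreated and 4.54, 5.05 and 4.85 in rhCYGB libraries. The groups overlapped, and the log2 difference of 0.076 had a two-sided exact permutation p of 0.3 (adjusted p = 0.3 over the 4 ratios). The test could not have gone below 0.1, so it leaves the difference untested at 0.05. With the counts of GPX1 and GPX1P1 summed, an alternative chosen after the values were seen, the ratio was 3.84, 4.1 and 4.17 in untreated and 4.37, 4.86 and 4.6 in rhCYGB libraries. The groups then did not overlap, and the log2 difference was 0.19.

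GPX8, a peroxidase of the endoplasmic reticulum membrane that lacks selenocysteine (gene number 493869, chromosome 5 from 54455999 to 54463125), had 895, 1074 and 988 counts in untreated and 987, 923 and 980 counts in rhCYGB libraries. Scaled to CPM, the values were 24.0, 24.0 and 24.2 against 26.6, 27.7 and 26.6. GPX8 was called higher, from 24.1 ± 0.137 to 26.97 ± 0.674 CPM with a log2 fold change of 0.16 ± 0.055 (± SE, adjusted p = 0.0136, edgeR's quasi-likelihood test), but the direction turned with total counts (-0.0018) and with limma on log2(FPKM + 1) (-0.0030) or log2(FPKM + 0.1) (-0.0034). The call was also lost with upper-quartile factors (0.022, adjusted p = 0.727, edgeR's test), with DESeq2's Wald test (0.15, adjusted p = 0.111) and without rhCYGB library 2 (0.14, adjusted p = 0.0503, edgeR's test). Its FPKM level was 6.03 ± 0.0666 in untreated and 6.02 ± 0.0555 in rhCYGB-treated cells.

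GPX3, the secreted plasma peroxidase (gene number 2878, chromosome 5 from 150400152 to 150408549), had 10, 15 and 13 counts in untreated and 6, 5 and 12 counts in rhCYGB libraries. The groups overlapped, and the log2 fold change of -0.52 had a 95% interval from -1.57 to 0.53 (adjusted p = 0.341, edgeR's quasi-likelihood test), so neither a fall of over 2-fold nor a small rise was outside the interval. GPX2, the gastrointestinal peroxidase (gene number 2877, chromosome 14 from 65405876 to 65409463), had 0 counts in all 6 libraries and was not detectable above the floor of 3 counts per library. GPX5 and GPX6 also had 0 counts, and GPX7 had 4 counts in the second rhCYGB library and 0 elsewhere. Among the 8 GPX genes, GPX4, GPX1 and GPX8 thus carried nearly all of the signal. Peroxidases outside the GPX family were not compared.

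The order of the members per length differed between the groups. In untreated cells the FPKM order was GPX4 (278 ± 0.244), GCLM (55.1), GPX1 (53.2 ± 1.29), GSS (51.4 ± 1.93), GSR (15.1 ± 0.552), CHAC2 (8.45 ± 0.673), GCLC (7.16), GPX8 (6.03) and GPX3 (0.172 ± 0.0228), with GPX2 at 0. The ranges of GCLM and GPX1, and those of GPX1 and GSS, overlapped, and no other neighbours did. After rhCYGB the order was GPX4 (341 ± 6.71), GPX1 (61.8 ± 4.39), GCLM (44.8), GSS (39.6 ± 0.744), GCLC (36.5), GSR (11.9 ± 0.427), CHAC2 (6.11 ± 0.472), GPX8 (6.02) and GPX3 (0.104 ± 0.0484), where CHAC2 and GPX8 alone overlapped as neighbours. GCLC had moved past CHAC2 and GSR to just below GSS. The summed FPKM of the 8 GPX genes was 338 ± 1.02 in untreated and 409 ± 10.2 in rhCYGB-treated cells, and GPX4 made up 82.4% ± 0.289 and 83.4% ± 0.681 of it.

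**Figure D3:**
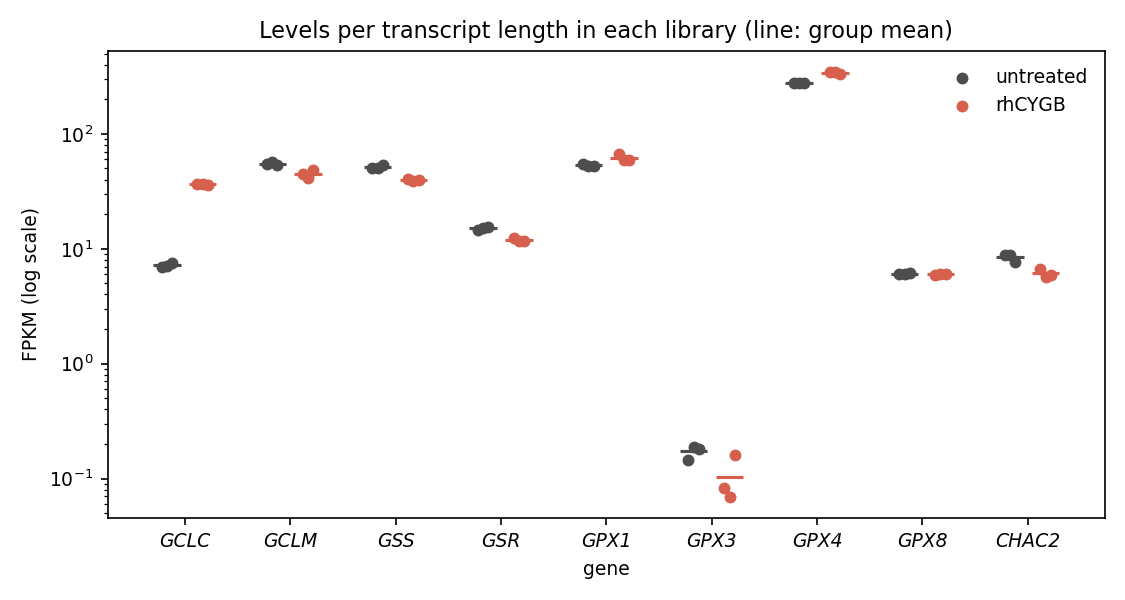
FPKM (y axis, log scale) of the 9 genes with reads (x axis) in each library, untreated in grey and rhCYGB in red, with lines at group means; GPX2, at 0 in every library, is left out. GCLC is the only gene whose points move from below 10 to above 30 FPKM.

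The deposited transcript counts place most reads of each gene on 1 listed transcript. Of the 36 transcripts listed for the 10 genes, 25 were tested, 4 were called higher and 2 lower, while 15.1% of the 32577 transcripts tested were higher and 14.8% lower. Transcript variant 1 of GCLC held 97.7% to 100% of the counts of the gene in each library, and its log2 fold change was 2.43 (adjusted p = 7.18e-06, edgeR's quasi-likelihood test). Variant 1 of GCLM held 85.6% to 97% and fell, with a log2 fold change of -0.30 (adjusted p = 0.026, edgeR). Variant 2 of GCLM made up 2.97%, 3.99% and 6.73% of GCLM counts in untreated and 3.7%, 14.4% and 12.2% in rhCYGB libraries, which overlapped, and it was not called (adjusted p = 0.297, edgeR). The main transcripts of GSS (log2 fold change -0.28), GPX1 (0.33) and GPX4 (0.37) were called in the direction of their genes. The main transcripts of GSR (-0.20, adjusted p = 0.211, edgeR) and CHAC2 (-0.38, adjusted p = 0.0891, edgeR) were not called, although their genes were. With total counts the main transcript of CHAC2 was called lower (-0.46, adjusted p = 0.0488, edgeR). That of GPX1 then lost its call (0.25, adjusted p = 0.0727, edgeR). For GPX8 the call fell on variant 2, with 10, 14 and 23 counts in untreated and 39, 84 and 62 counts in rhCYGB libraries (log2 fold change 2.11, adjusted p = 0.0406, edgeR), while variant 1, with 81.4% to 87.5% of the counts, was not called (0.082, adjusted p = 0.495, edgeR). Transcripts of a gene share reads, so the division of counts between them is an estimate. Without any 1 of the 6 libraries the call on variant 2 of GPX8 was lost, with adjusted p from 0.0511 to 0.13 in edgeR's quasi-likelihood test, and that on variant 1 of GPX1 held only without rhCYGB library 3. The call on variant 1 of GCLM was lost without untreated library 1 or 2 or rhCYGB library 3, while those of GCLC, GSS and GPX4 held without each library in turn.

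The rest of the glutathione system was described with 114 genes in 10 lists, of which 91 were tested. Of these, 42 were called higher (46.2%, beside 39.0% of all genes tested) and 41 lower (45.1%, beside 38.6%), and 8 were not called. The lists differed in direction. Of the 8 genes that supply cysteine and glutamate, 7 were higher and 1 lower, beside 39.0% and 38.6% of all genes tested, with a median log2 fold change of 1.48. SLC3A2, the heavy chain of the cystine transporter, had 3492, 4116 and 3168 counts in untreated and 36947, 31207 and 35246 counts in rhCYGB libraries, a log2 fold change of 3.46. CTH, which makes cysteine from cystathionine, rose from 10.4 ± 0.908 to 87.1 ± 2.99 CPM (log2 fold change 3.06), and SLC1A4, a neutral amino acid transporter, from 13.6 ± 1.61 to 74.8 ± 2.30 CPM (2.45). SLC7A11, the light chain of the cystine transporter, had a log2 fold change of 1.63 (adjusted p = 1.36e-11, edgeR's quasi-likelihood test), or 0.91 with limma on log2(FPKM + 1). SLC1A1, a glutamate and cysteine transporter with few reads, was the gene that was lower, with 85, 111 and 102 counts in untreated and 16, 12 and 21 counts in rhCYGB libraries.

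The 16 genes of glutathione breakdown and export were less uniform. Of the 10 tested, 6 were higher (60%, beside 39.0% of all genes tested), 2 lower (20%, beside 38.6%) and 2 not called, with a median of 0.23. The number called lower was 1 with DESeq2's Wald test, with no filter on low counts and with a replicate block. It was also 1 without untreated library 1 or 2, or without rhCYGB library 1 or 2. CHAC1 was the only gene of the list to reach 2-fold. OPLAH, which opens 5-oxoproline to glutamate, rose from 22.9 ± 0.989 to 41.2 ± 0.231 CPM (log2 fold change 0.85). SLC25A40, a mitochondrial glutathione carrier, was higher (0.40, or 0.23 with total counts), and its paralog SLC25A39 was lower (-0.38). GGCT, which acts on gamma-glutamyl amino acids, was not called (-0.053, adjusted p = 0.285, edgeR's quasi-likelihood test), but was called lower under 4 of 16 alternatives, with log2 fold changes down to -0.22.

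Glutathione transferases, which conjugate glutathione to electrophiles, were lower with 1 exception. Of 16 tested, 15 were lower (93.8%, beside 38.6% of all genes tested) and 1 was higher, with a median log2 fold change of -0.70, beside -0.0046 over all genes. GSTA4 fell from 17.1 ± 1.77 to 6.03 ± 0.734 CPM (log2 fold change -1.51), and GSTP1, the pi class transferase, from 326 ± 2.29 to 202 ± 9.38 CPM (-0.69). GSTT2 (-1.31) and GSTT2B (-1.20) are near-identical copies whose reads may have been split, so their separate values are uncertain. GSTO2, the only one called higher, had 17, 18 and 19 counts in untreated and 32, 22 and 27 counts in rhCYGB libraries (adjusted p = 0.0446, edgeR's quasi-likelihood test), and its call was lost under 11 of 16 alternatives, without any 1 library other than the second of the rhCYGB group among them (adjusted p up to 0.301). GSTP1, GSTO2, SLC1A1, SLC25A39 and GGCT were chosen after their values were seen.

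**Figure D4:**
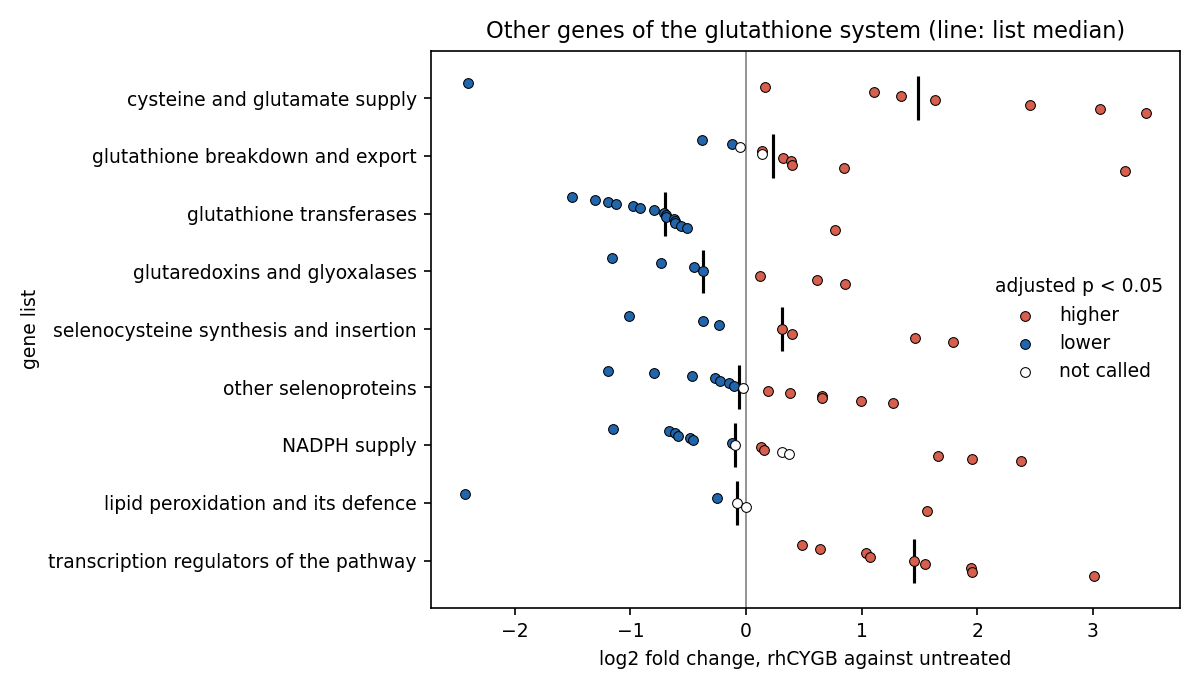
Log2 fold change after rhCYGB (x axis) of the tested genes of 9 lists (y axis), 1 point per gene, red for called higher, blue for called lower and white for not called at an adjusted p under 0.05, with a line at each list median. Transcription regulators (median 1.46) and cysteine and glutamate supply (1.48) lie mostly to the right of 0 and glutathione transferases (-0.70) mostly to the left.

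Of 7 glutaredoxins and glyoxalases, which use glutathione as a cofactor, 3 were higher and 4 lower (median -0.37). These are 42.9% and 57.1% of the 7, beside 39.0% and 38.6% of all genes tested. GLRX (-1.16) and the mitochondrial GLRX5 (-0.73) were lower, and GLRX2 (0.86) was higher. GLRX had 53, 50 and 83 counts in untreated and 26, 20 and 27 counts in rhCYGB libraries, and limma on log2(FPKM + 1) gave -0.64.

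GPX1 and GPX4 contain selenocysteine. Of the 7 genes that make and insert it, 4 were higher and 3 lower (median 0.31). These are 57.1% and 42.9% of the 7, beside 39.0% and 38.6% of all genes tested. SEPHS2, which makes the selenium donor, rose from 73.7 ± 1.74 to 254 ± 4.19 CPM (log2 fold change 1.79), PSTK, which phosphorylates the serine on the selenocysteine tRNA, from 3.98 ± 0.427 to 10.96 ± 0.995 CPM (1.46), and SCLY, which recovers selenium from selenocysteine, fell from 25.7 ± 2.19 to 12.7 ± 0.276 CPM (-1.02). Among 14 tested selenoproteins outside the GPX family, 6 were higher (42.9%), 7 lower (50%) and 1 not called, near the shares of all genes tested. SELENOS (1.28) and SELENOK (0.99), both of the endoplasmic reticulum, were higher, and TXNRD3 (-1.19), a thioredoxin-glutathione reductase, was lower.

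Of 15 genes listed for supply of NADPH, the reductant that GSR uses, 5 were higher, 7 lower and 3 not called (median -0.094). These are 33.3% higher and 46.7% lower, beside 39.0% and 38.6% of all genes tested. The number called higher was 3 with upper-quartile factors, total counts or limma on either FPKM scale. The 3 largest changes belonged to enzymes of mitochondrial folate metabolism: MTHFD2 rose from 200 ± 11.7 to 1036 ± 32.6 CPM (log2 fold change 2.38), ALDH1L2 from 2.78 ± 0.269 to 10.8 ± 0.216 CPM (1.95) and MTHFD1L from 47.0 ± 0.552 to 149 ± 6.48 CPM (1.66). MTHFD1L is the formyltetrahydrofolate synthetase of that pathway and is not known to make NADPH itself. For ALDH1L2, a weakly expressed gene, limma on log2(FPKM + 1) gave 0.71.

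Of 9 genes of lipid peroxidation and its defence, 5 were tested, 1 was higher and 2 were lower. These are 20% and 40% of the 5, beside 39.0% and 38.6% of all genes tested. With upper-quartile factors or total counts 4 were lower, and with DESeq2's Wald test or no filter on low counts 2 were higher. LPCAT3, which loads polyunsaturated fatty acids into phospholipids, fell from 41.1 ± 1.28 to 7.66 ± 1.26 CPM (log2 fold change -2.43). AIFM2, a glutathione-independent defence against lipid peroxidation, rose from 20.6 ± 0.837 to 61.2 ± 1.60 CPM (1.57). GCH1, the first enzyme of tetrahydrobiopterin synthesis, was lower by a smaller amount (-0.25, or -0.42 with total counts; for the former, adjusted p = 0.00749, edgeR's quasi-likelihood test).

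All 9 transcription regulators listed for the pathway were called higher, beside 39.0% of all genes tested, with a median log2 fold change of 1.46. In 7 of them (77.8%) the rise reached 2-fold, beside 12.4% of all genes. The small MAF proteins MAFF and MAFG, partners of NRF2 at antioxidant response elements, had log2 fold changes of 3.01 and 1.95. ATF4, the factor of the amino acid response, rose from 209 ± 16.8 to 809 ± 31.4 CPM (1.95). NFE2L2 had a log2 fold change of 1.46 and KEAP1, which targets NRF2 for degradation, of 0.48, or 0.31 with total counts (adjusted p = 7.34e-08 for the former, edgeR's quasi-likelihood test). These are transcript levels, and the abundance or activity of the proteins was not measured in these files.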

How the data were processed

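RNA of MIA PaCa-2 cells was sequenced in 3 untreated and 3 rhCYGB libraries made with a stranded mRNA kit. The submitters' processing notes name FastQC 0.11.7, HISAT2 2.1.0 and StringTie 2.1.3b, and list mm10, a mouse build, although the tables hold human genes. The positions are not those of GRCh38: they reach 249231298 on chromosome 1, where the last GRCh38.p14 gene ends at 248937099, and those of 1 of the 10 members overlap. The authors deposited read counts per gene and per transcript as whole numbers without normalization, and FPKM values relative to transcript length and mapped fragments. The 18 columns of gene TPM, transcript TPM and transcript FPKM were not used.

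Counts were filtered with filterByExpr, scaled with TMM factors and tested in edgeR 4.0.16 in R 4.3.3 (glmQLFit, glmQLFTest), with all 6 libraries and no block term, with Benjamini-Hochberg adjustment over all genes or transcripts tested. The scripts were tested on simulated data. Count ratios were compared with exact permutation tests. Replicate pairs differed by more than counting error (chi-square per degree of freedom 4.76 to 6.76), so none was counted as a second copy. Floors cover counting error only. The alternatives used DESeq2 1.42.0 size factors and its Wald test, upper-quartile factors, total counts, limma 3.58.1 on log2(FPKM + 1) or log2(FPKM + 0.1), the unfiltered table, at least 10 counts in every library, counts summed from transcripts, a replicate block, a 2-fold limit and leaving out each library.

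The text names all members, CYGB, CHAC1, GPX7, SLC7A11, NFE2L2, KEAP1, ATF4, and up to 3 genes per list with the largest log2 fold change among those called with a mean of at least 1 CPM in the higher group and no overlap. Exceptions are marked. The members and lists were chosen with earlier results of these data known.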

Additional observations from a re-analysis of the deposited data

How the results depend on the processing

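GCLC, GSS, GSR, GPX1, GPX4 and CHAC2 kept direction and call under every alternative run other than the 2-fold limit. Their log2 fold changes were, in that order, 2.20 to 2.55, -0.37 to -0.18, -0.35 to -0.15, 0.21 to 0.42, 0.29 to 0.49 and -0.47 to -0.26. GCLM kept its direction (-0.30 to -0.093) and lost its call without untreated library 2 or rhCYGB library 2. The median of all genes moved by -0.142 with upper-quartile factors, -0.165 with total counts, -0.152 with limma on log2(FPKM + 1) and -0.163 on log2(FPKM + 0.1). GPX8 reversed with total counts (-0.0018) and both FPKM scales (-0.0030 and -0.0034), as did transcript variant 1 of GPX8 with total counts (-0.0029). A 2-fold limit left 1 member higher and 0 lower by edgeR's test, and 21 other pathway genes higher and 10 lower. With 1 library left out, 2 to 3 member transcripts were called higher and 1 to 2 lower, and the log2 difference of the GCLC to GCLM ratio was 2.58 to 2.72.

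Same-numbered libraries did not deviate together (correlations -0.0479, 0.00715 and 0.00554), and not every library correlated best with its own number, so the shared numbers were not taken as pairs. A fit with the replicate block gave 4 members higher and 4 lower, as did the fit without it, 41 pathway genes higher and 40 lower, and 2 member transcripts higher and 0 lower, with fewer residual degrees of freedom. The transcript calls lost were those of variant 1 of GCLM (adjusted p = 0.0941), GSS (0.0553) and GPX1 (0.113) and variant 2 of GPX8 (0.107), by edgeR's quasi-likelihood test. The sign-flip form of the ratio tests cannot go below 0.25. Depth limits GPX2, GPX3, GPX5, GPX6 and GPX7, whose counts were at or near 0.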
